A study of Mus musculus with 74 samples.

Results

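Enterocytes, the absorptive cells of the intestinal lining, build and secrete lipid particles, and 9 genes of this assembly were followed. They are the apolipoprotein genes Apoa1, Apoa4, Apoc2, Apoc3 and Apob, the lipid transfer gene Mttp, and the triglyceride synthesis genes Mogat2, Dgat1 and Dgat2. They were taken by symbol from a table of RNA-seq read counts for 24015 mouse gene symbols, and all 9 were found and passed the filter on low counts. Levels are given in all 15 groups, 31 libraries in total. Of these groups, 14 held 2 libraries and the other held 3.

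Wild-type epithelium of CD1 embryos was taken from forestomach (the squamous part of the mouse stomach), hindstomach (its glandular part) and small intestine at embryonic day 12 (E12), E14 and E16, and from small intestine at E18. The labels call the E12 and E14 intestinal cells midgut. All Cdx2 knockout groups carried floxed Cdx2 alleles (Cdx2f/f) on a mixed B6;129 background. Cdx2 is a homeobox gene needed for intestinal identity of the gut lining. Deletion labelled E10 used Shh-Cre, active in the early gut lining, without any drug, and was sampled at E16 in 3 libraries. Deletions labelled E13 and E15 used Villin-Cre, driven in intestinal epithelium, with 5 mg tamoxifen given by oral gavage, and were sampled at E16 and E18. Adult ileum was the distal part of the small intestine. Adults labelled knockout carried Villin-Cre and received 1 mg tamoxifen on 5 days, and adult controls were Cdx2f/f animals given oil. Both were killed 3 days after the last injection. Strain and genotype cannot be told apart in the embryonic knockout comparisons. With the E13, E15 and adult labels, Cre and tamoxifen cannot be told apart from deletion. The labels do not say whether 2 libraries of a group came from separate litters. The p-values measure only the spread between these libraries, shared over all groups of a fit. Between libraries of a group, the chi-square per degree of freedom, near 1 for counting error alone, was 1.526 in E18 wild type. It was 2.476 with the E13 label, 5.016 with the E15 label, 50.503 to 131.768 with the E10 label and 75.89 in E12 intestine.

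Dietary triglyceride is broken down in the gut lumen and rebuilt inside the enterocyte. Mogat2 encodes the acyltransferase that makes diacylglycerol from absorbed monoacylglycerol, and Dgat1 and Dgat2 encode unrelated enzymes that add the last acyl chain. The product is loaded onto apolipoprotein B, the structural protein of chylomicrons, by the microsomal triglyceride transfer protein that Mttp encodes. Apolipoproteins A-I and A-IV join the particle surface. Apolipoprotein C-II activates lipoprotein lipase in the circulation, while C-III restrains clearance of the particles.

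Several of these genes are neighbours. In RefSeq's GRCm38.p6 gene order, Apoa1, Apoc3, Apoa4 and Apoa5 follow each other on chromosome 9. Apoc2 lies beside Apoc4 and Apoc1 on chromosome 7, and Dgat2 and Mogat2 are adjacent elsewhere on that chromosome. Apob is on chromosome 12, Mttp on chromosome 3 and Dgat1 on chromosome 15. RefSeq promoter windows were matched for 5 of the 9 genes, by symbol. The 250 bases before the transcription start are printed 5′ to 3′ for 4 of them. Apoa4, Apoc2 and Apob are shown because they held a searched motif, and Mttp because it had one of the largest differences between groups. Capitals mark motif matches. Apoa4 lies at chr9:46240594-46240843, plus strand. Apob lies at chr12:7977427-7977676, plus strand. Apoc2 lies at chr7:19677942-19678191, minus strand, and Mttp at chr3:138143419-138143668, minus strand, all in build GRCm38.p6.
Apoa4: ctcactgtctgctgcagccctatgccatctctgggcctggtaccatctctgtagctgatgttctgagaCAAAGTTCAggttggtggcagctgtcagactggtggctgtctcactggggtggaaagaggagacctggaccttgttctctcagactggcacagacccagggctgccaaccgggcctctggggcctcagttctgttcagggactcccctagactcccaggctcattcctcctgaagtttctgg
Apob: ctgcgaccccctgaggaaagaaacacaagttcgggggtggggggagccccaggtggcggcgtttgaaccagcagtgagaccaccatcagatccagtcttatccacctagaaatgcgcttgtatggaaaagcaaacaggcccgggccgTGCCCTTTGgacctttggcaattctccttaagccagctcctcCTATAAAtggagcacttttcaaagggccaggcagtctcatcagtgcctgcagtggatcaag
Apoc2: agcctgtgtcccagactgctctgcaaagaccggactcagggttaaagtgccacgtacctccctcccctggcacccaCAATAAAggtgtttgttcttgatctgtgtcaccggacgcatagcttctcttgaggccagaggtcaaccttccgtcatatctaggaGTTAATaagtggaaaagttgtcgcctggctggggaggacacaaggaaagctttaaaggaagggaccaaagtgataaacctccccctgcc
Mttp: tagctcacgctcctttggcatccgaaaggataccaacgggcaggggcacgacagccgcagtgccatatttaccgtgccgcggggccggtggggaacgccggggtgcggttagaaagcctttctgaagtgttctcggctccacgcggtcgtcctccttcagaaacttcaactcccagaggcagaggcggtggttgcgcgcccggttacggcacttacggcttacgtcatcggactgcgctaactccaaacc

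The motifs were searched on both strands of windows of 300 bases, from 250 before to 50 after the start, and overlapping matches were allowed. They were CAAAGNNCA for HNF4 factors, TTTATNG for CDX factors, GTTAAT for HNF1, AGATAA for GATA factors and TATAAA for the TATA box. The Apoa4 window held CAAAGTTCA at -182 to -174 from the start. The Apob window held the HNF4 letters on the minus strand, read as TGCCCTTTG at -103 to -95. It also held CTATAAA at -61 to -55, where the CDX letters on the minus strand overlap the TATA box TATAAA at -60 to -55. In Apoc2 the window had CAATAAA, the CDX letters on the minus strand, at -174 to -168, and GTTAAT at -89 to -84. None of these 5 strings was found in the Apoa1 and Mttp windows. Among 32851 mouse windows of the same length, 6.36% held the HNF4 letters, 10.9% the CDX letters, 7.10% HNF1, 11.2% GATA and 13.6% the TATA box. These matches are descriptions of the letters only.

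Library totals ran from 5970227 to 62463167 counts, with a median of 21910062, and the 2 shallowest were the E16 forestomach libraries. Cdx2 was read first, since it checks the labels. It stood at 184 and 204 CPM, the read count scaled to library size, in E16 wild-type intestine and at 16.8, 14 and 26.7 in the libraries labelled E10 knockout (log2 change -3.40, SE 0.27, edgeR adjusted p 3.0e-09). Those labelled E13 knockout held 197 and 202 CPM. The libraries labelled E15 knockout held 359 and 343 CPM, against 186 and 193 in E18 wild type. In the adult, 729 and 698 CPM were counted in libraries labelled knockout and 340 and 346 in controls. Cdx2 counts thus went against the label at E13, at E15 and in the adult, and the groups are called by their labels below. A count per gene does not show whether the floxed exon was removed. The epithelial markers Epcam, Cdh1, Krt8 and Krt18 together took 0.289% to 1.25% of counts in every group except E16 forestomach, where they took 0.0739% to 0.0826%. In those E16 forestomach libraries, 6 blood markers took 1.54% to 1.99% and 8 markers of mesenchyme and muscle 2.02% to 2.47%. Treh, Sis and Vil1 of 7 enterocyte markers were at 0 there.

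**Figure D1:**
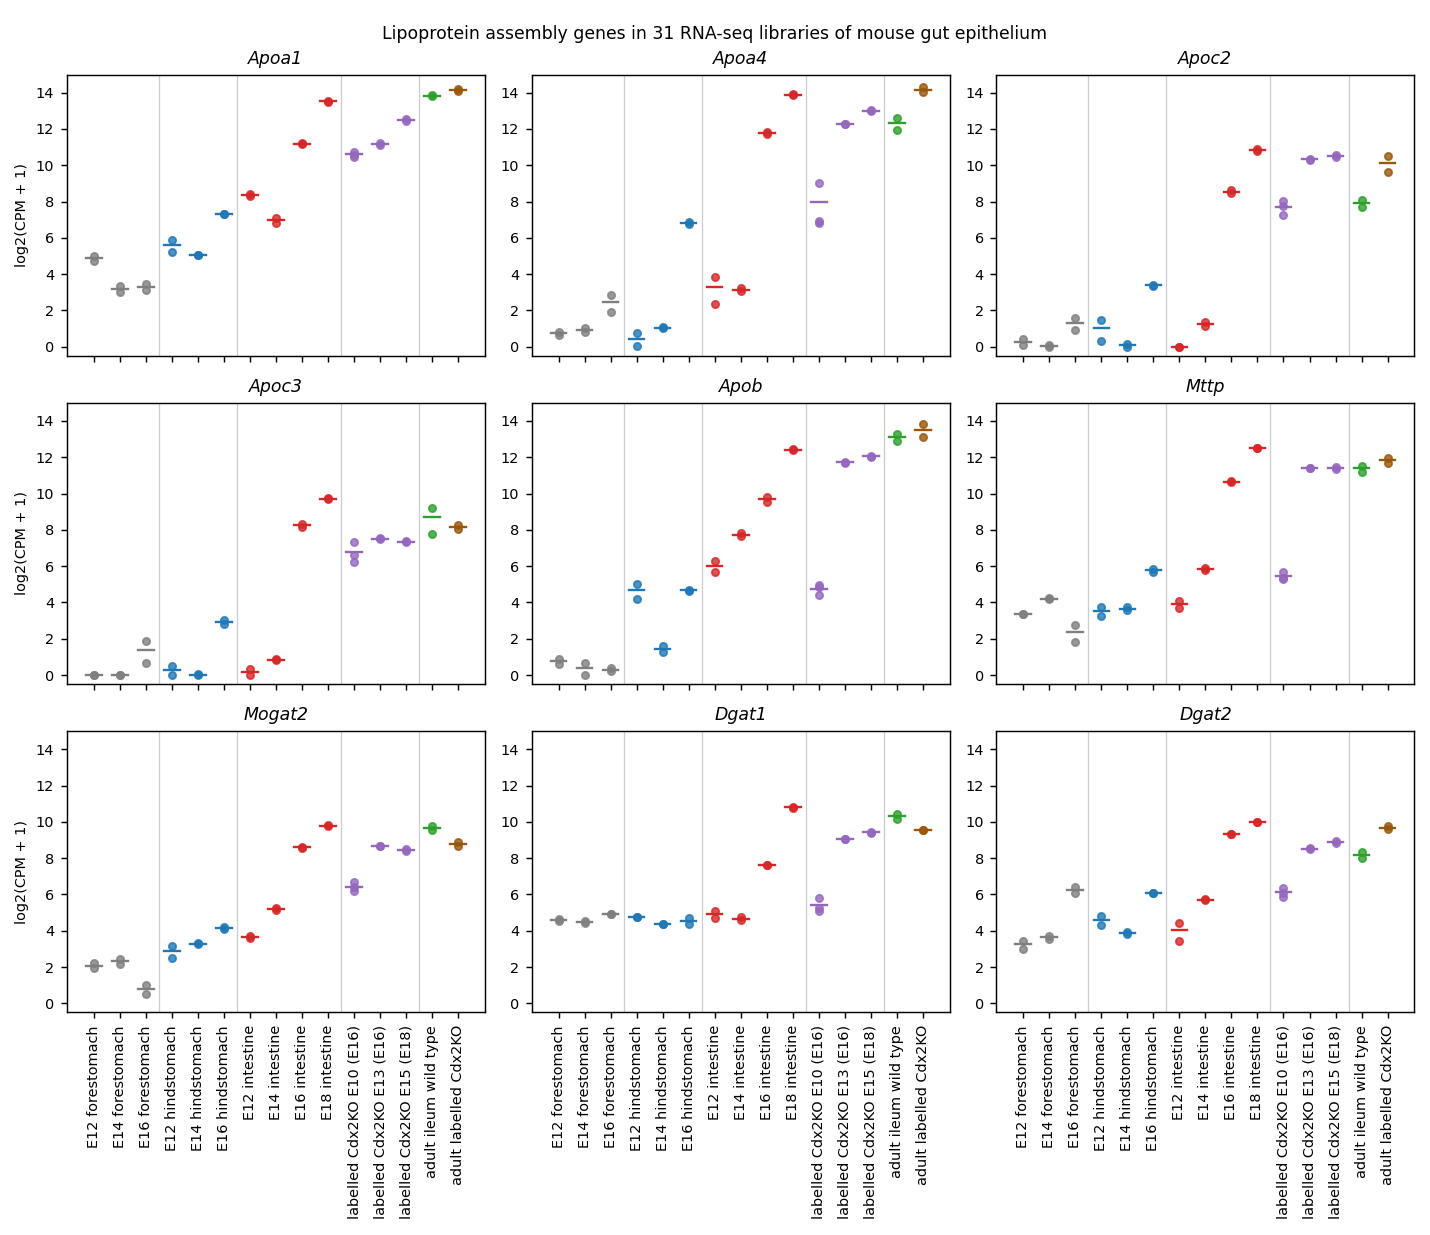
Level of each of the 9 genes in every library. The vertical axis is log2(CPM + 1), with CPM on TMM-adjusted library sizes over all 31 libraries, each point is 1 library, and each bar marks the log2 of the group mean plus 1. The 3 deletion labels are followed by the sampling stage in brackets. All 9 genes were highest among embryonic groups in E18 small intestine.

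How these genes changed as the wild-type small intestine matured was read across E12, E14, E16 and E18. Together the 9 genes took 0.0581% and 0.0598% of all counts at E12, 0.0668% and 0.0641% at E14, 1.22% and 1.16% at E16, and 3.30% and 3.35% at E18. A gene was called changed when edgeR's quasi-likelihood test gave a Benjamini-Hochberg adjusted p below 0.05 over 17239 tested genes and the log2 fold change, written log2 change below, was at least 1 in size. Between E14 and E16 all 9 genes rose, where 13.7% of tested genes rose. The median log2 fold change was 4.26 over the 9 and -0.08 over all tested genes. Between E16 and E18, 8 of 9 rose, where 20.1% of tested genes did, with medians of 2.11 and -0.05. From E12 to E14, 6 rose and 1 fell, where 11.3% of tested genes rose and 4.89% fell. The 2795 calls behind those shares were 4895 without the second E12 library and 1762 without the second E14 library. In bulk epithelium, a change in the share of cells of one type and a change in RNA per cell cannot be told apart. The share of counts in 7 enterocyte markers moved along these stages too, from 0.00406% to 0.00974% at E12, 0.0669% to 0.0788% at E14, 0.318% to 0.338% at E16 and 2.84% to 2.87% at E18. Mesenchyme and muscle markers took 0.0284% to 0.0356% at E14, 0.138% to 0.150% at E16 and 3.1e-04% to 4.2e-04% at E18. At E14, blood markers took 0.00521% to 0.00566%, pancreas markers 0.0223% to 0.0236%, immune markers 0.00234% to 0.00266% and endothelium markers 1.8e-04% to 1.9e-04%. All 4 lists were higher at E16, with immune markers at 0.0120% to 0.0123% and endothelium markers at 0.00326% to 0.00363%. Between E16 and E18, pancreas markers went from 0.0536% to 0.0570% down to 7.3e-04% to 0.00101%, and blood markers from 0.0193% to 0.0197% down to 5.7e-05% to 1.1e-04%. The part of these lists in the changes was not tested. Cells at E18 were released from villi with EDTA and not sorted for Epcam, unlike those at earlier stages, so stage and preparation cannot be told apart between E16 and E18.

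Apoa1 encodes the main protein of high-density lipoprotein. Its level was 335 and 320 CPM at E12, 133 and 114 at E14, 2385 and 2295 at E16, and 11661 and 12146 at E18. The stages did not overlap, and E14 was the lowest. Apoa1 fell from E12 to E14 (log2 change -1.41, SE 0.17, edgeR adjusted p 1.1e-05). It then rose by 4.26 (SE 0.19, edgeR adjusted p 2.7e-11) and by 2.36 (SE 0.18, edgeR adjusted p 2.2e-09) on the log2 scale. In E12 intestine 6 liver markers took 0.00228% to 0.00297% of counts, a range that held the 0.00249% to 0.00252% of E12 forestomach, and in E14 intestine they took 2.0e-04% to 3.0e-04%. In E12 intestine Ahsg was at 0 and Alb at 0 to 0.302 CPM, while Fga was at 0.877 to 12.1, Fgg at 7.62 to 9.70, Fgb at 4.18 to 5.71 and Hpx at 0 to 1.39 CPM. Their part in the Apoa1 and Apoa4 levels at E12 and in the Apoa1 change to E14 was not tested. Apoa4, from the same gene cluster, encodes an apolipoprotein made mainly by the intestine in rodents. It stood at 13.5 and 4.08 CPM at E12 and 8.30 and 7.31 at E14, so those stages overlapped (log2 change -0.17, SE 0.61, edgeR adjusted p 0.876). At E16 it reached 3671 and 3384 CPM, a log2 change of 8.83 (SE 0.81, edgeR adjusted p 8.7e-08), the largest of the 9 genes in that interval. At E18 it was at 14961 and 15296 CPM, a further 2.11 (SE 0.59, edgeR adjusted p 0.00541).

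The apolipoprotein C genes were close to the detection limit in early intestine. Apoc2 had 0 counts in both E12 libraries and 118 and 32 counts at E14, or 1.53 and 1.19 CPM. Taking 3 counts as the floor, that was at least 14.6-fold higher at E14. It reached 393 and 356 CPM at E16 (log2 change 8.08, SE 0.51, edgeR adjusted p 1.5e-09), with 1796 and 1870 at E18 (2.30, SE 0.38, edgeR adjusted p 4.5e-05). Apoc3 had 0 and 9 counts at E12 and 67 and 20 at E14. That rise passed the test (log2 change 2.52, SE 0.87, edgeR adjusted p 0.0375) but not without the first E12 library (1.59, adjusted p 0.21) or without the first or the second E14 library (adjusted p 0.158 and 0.0792). Without the second E12 library the fitted value was 7.39, since the other held 0 counts. Apoc3 stood at 317 and 289 CPM at E16 (log2 change 8.53, SE 0.57, edgeR adjusted p 5.5e-09) and at 826 and 850 CPM at E18. The last step was 1.48 (SE 0.39, edgeR adjusted p 0.00411) with edgeR and missed the threshold with DESeq2 (1.50, adjusted p 0.139).

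Apob rose at each step, with the smallest change of the 9 between E14 and E16. It stood at 49.4 and 78.2 CPM at E12, 226 and 200 at E14, 900 and 754 at E16 and 5426 and 5534 at E18, with no overlap. The log2 fold changes were 1.74 (SE 0.34, edgeR adjusted p 8.3e-04), 1.97 (SE 0.34, edgeR adjusted p 1.3e-04) and 2.74 (SE 0.35, edgeR adjusted p 1.8e-06). Mttp, whose product lipidates apolipoprotein B, was at 16 and 11.9 CPM at E12, 53.3 and 58.2 at E14, 1643 and 1573 at E16 and 5822 and 5847 at E18. It too rose at each step, by 2.00 (SE 0.21, edgeR adjusted p 2.5e-06), 4.86 (SE 0.24, edgeR adjusted p 4.6e-11) and 1.87 (SE 0.21, edgeR adjusted p 3.3e-07). Counts of Mttp per count of Apob were 0.236 and 0.292 at E14, 1.83 and 2.09 at E16 and 1.07 and 1.06 at E18. Gene lengths are not divided out of that ratio, so only its change between libraries can be read.

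Among the acyltransferase genes, Mogat2 rose at each step, Dgat2 at both steps up to E16, and Dgat1 at both steps after E14. Mogat2 stood at 11.3 and 12 CPM at E12, 37.6 and 34.0 at E14, 395 and 382 at E16 and 865 and 899 at E18. Its log2 fold changes were 1.62 (SE 0.19, edgeR adjusted p 8.1e-06), 3.45 (SE 0.20, edgeR adjusted p 3.3e-10) and 1.19 (SE 0.18, edgeR adjusted p 2.0e-05). Dgat2 was at 9.88 and 20.9 CPM at E12, 52.5 and 50.7 at E14, 633 and 635 at E16 and 1017 and 1001 at E18. It rose by 1.74 (SE 0.25, edgeR adjusted p 5.6e-05, and 2.38 without the second E12 library) and 3.63 (SE 0.26, edgeR adjusted p 5.3e-09). The last difference, 0.68 (SE 0.24, edgeR adjusted p 0.0217), was under the minimum size. Dgat1 was at 33.1 and 25.4 CPM at E12 and 26.0 and 22.8 at E14, where the ranges overlapped. It stood at 198 and 200 CPM at E16 (3.04, SE 0.18, edgeR adjusted p 4.0e-10) and at 1793 and 1757 at E18 (3.17, SE 0.18, edgeR adjusted p 5.1e-11), the largest change of the 9 genes in the last interval. In a fit of the compared groups alone, Apob, Dgat2, Mogat2, Apoc2 and Apoc3 lost their call from E12 to E14, with adjusted p of 0.0557, 0.0844, 0.0531, 0.0767 and 0.427.

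**Figure D2:**
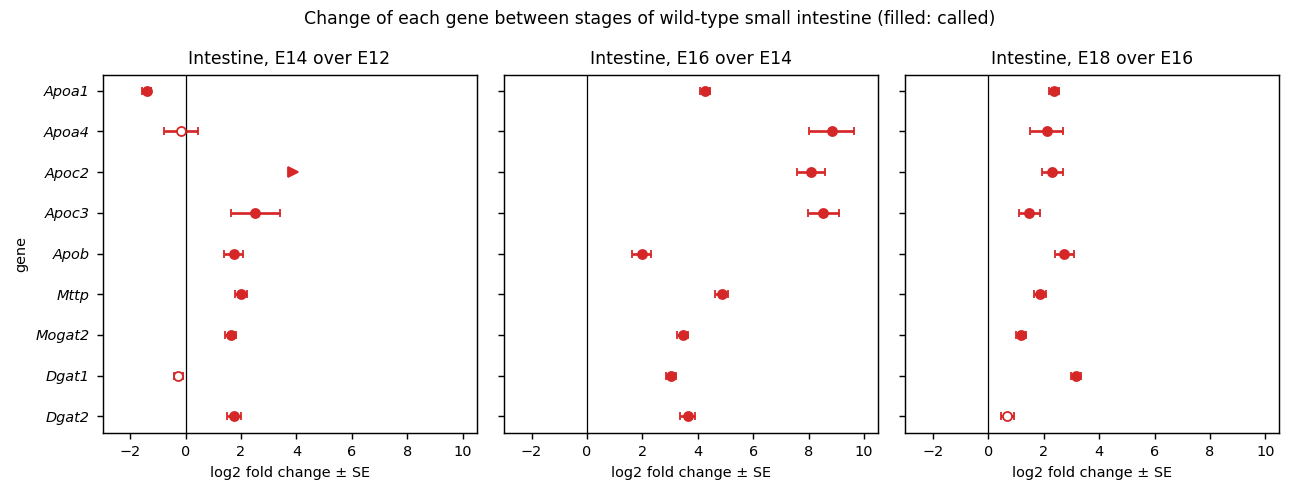
Change of each gene between successive stages of wild-type small intestine, 2 libraries per stage. Points show the log2 fold change of later over earlier stage with bars of 1 SE, filled points passed the test and the size minimum, and the triangle for Apoc2 marks the lower bound of 14.6-fold against 0 counts at E12. All 9 points are filled and to the right of 0 between E14 and E16.

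The stomach epithelia served as tissues of the same age that do not become intestine. At E16 all 9 genes were lower in hindstomach than in small intestine, where 8.10% of tested genes were lower. The median log2 fold change was -4.92 over the 9 and 0.18 over all tested genes. All 9 were also lower in forestomach, where 16.4% of tested genes were lower, with medians of -8.09 and 0.00. No hindstomach or forestomach library overlapped the intestine for any of the 9. Markers of mesenchyme and muscle took 0.807% to 0.830% of counts in E16 hindstomach and 0.138% to 0.150% in E16 intestine, and 5 pancreas markers took 0.191% to 0.222% and 0.0536% to 0.0570%. In the same order, enterocyte markers took 0.0267% to 0.0281% and 0.318% to 0.338%, and blood markers 0.125% to 0.177% and 0.0193% to 0.0197%. Immune markers took 0.0607% to 0.0750% and 0.0120% to 0.0123%, and nerve and glia markers 0.0550% to 0.0567% and 0.00315% to 0.00420%. The part of these, and of the blood and mesenchyme markers in E16 forestomach, in the differences was not tested.

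Apoa1 was at 159 and 160 CPM in E16 hindstomach and 9.93 and 7.60 in forestomach, log2 fold changes against intestine of -3.88 (SE 0.19, edgeR adjusted p 4.5e-11) and -8.09 (SE 0.24, edgeR adjusted p 1.9e-14). Apoa4 was at 118 and 107 CPM in hindstomach and 2.82 and 6.29 in forestomach, lower by -4.98 (SE 0.68) and -9.62 (SE 0.87). Apoc2 had 9.31 and 9.74 CPM in hindstomach, and Apoc3 had 6.00 and 7.23. These were differences of -5.31 (SE 0.44) and -5.53 (SE 0.48) from the intestine. In forestomach Apoc2 had 6 and 14 counts and Apoc3 had 4 and 18. Apob was at 23.4 and 25.1 CPM in hindstomach (-5.10, SE 0.39, edgeR adjusted p 1.0e-08). It had 1 and 2 counts in the forestomach libraries, a ratio of intestine to forestomach of 3757 with a 95% counting interval of 1286 to 18221. Mttp stood at 56.5 and 50.5 CPM in hindstomach (-4.92, SE 0.24, edgeR adjusted p 4.4e-11) and 2.52 and 5.70 in forestomach (-8.64, SE 0.30, edgeR adjusted p 1.5e-13).

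Mogat2 was at 17.4 and 16.2 CPM in E16 hindstomach and had 3 and 7 counts in forestomach. Its log2 fold changes against intestine were -4.54 (SE 0.21, edgeR adjusted p 4.4e-11) and -9.06 (SE 0.32, edgeR adjusted p 1.5e-13). Without the second forestomach library the differences from intestine were larger, at -10.32 for Apoa4, -8.75 for Apoc2, -9.02 for Apoc3, -9.35 for Mttp and -9.79 for Mogat2. Apoc3 was at -6.87 without the first. Dgat1 was at 19.9 and 24.6 CPM in hindstomach and 29.8 and 29.7 in forestomach, and Dgat2 at 66.9 and 65.7 and at 83.4 and 67.8. These genes had the smallest differences from intestine of the 9, -3.17 (SE 0.18) and -2.77 (SE 0.18) for Dgat1 and -3.27 (SE 0.26) and -3.10 (SE 0.26) for Dgat2. Between the stomach regions at E16, 7 of 9 genes were lower in forestomach, where 13.8% of tested genes were lower. The exceptions were Dgat1 (log2 change 0.40, SE 0.18, edgeR adjusted p 0.0977) and Dgat2 (0.17, SE 0.25, edgeR adjusted p 0.653). Both enzymes act in many tissues besides the gut. The call for Apoc3 between stomach regions (-2.05, SE 0.65, edgeR adjusted p 0.0223) was lost without the first forestomach library (-1.34, adjusted p 0.23), without the second hindstomach library (-1.91, adjusted p 0.0788) and with DESeq2 (-1.86, adjusted p 0.109). Without the second forestomach library it was -3.50, and Apoa4, Apoc2, Mttp and Mogat2 were at -5.34, -3.44, -4.43 and -5.25.

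Before E16 the organs differed by fewer of these genes. At E12, 3 of 9 were lower and 1 was higher in hindstomach than in intestine, where 3.67% and 5.60% of tested genes were. The second E12 intestine library stood apart from the first: leaving it out raised the number of called genes in this comparison from 1599 to 3899. Pancreas markers took 4.7e-04% to 5.3e-04% of counts in E12 hindstomach, 0.0108% to 0.0122% in forestomach and 0.0292% to 0.0317% in intestine. Liver markers took 8.2e-04% to 0.00160% in hindstomach, against the intestine share given above. Their part in the E12 differences was not tested. Apoa1 was at 36.6 and 57.5 CPM in hindstomach and about 6.97-fold higher in intestine (log2 change -2.80, SE 0.18, edgeR adjusted p 4.2e-09). Apoa4 (-4.60, SE 0.86, edgeR adjusted p 0.0013) and Apob (-1.40, SE 0.34, edgeR adjusted p 0.00894) were the others that were lower. Both calls were lost in a fit of the compared groups alone (adjusted p 0.288 and 0.228), Apob also without the second hindstomach library (-1.03, adjusted p 0.121), and Apoa4 was at -8.05 without the first. Apoa4 ranged from -3.48 to -5.22 without the first or the second intestine library. Apoc2 was the gene that was higher, with 62 and 9 counts in hindstomach against 0 and 0 in intestine, at least 11.1-fold. Without the first hindstomach library the bound was 2.74-fold, and without the second 19.5-fold. In the fit of the compared groups alone Apoc2 did not pass the filter on low counts. Cdx2 in E12 hindstomach, at 110 and 152 CPM, overlapped with E12 intestine, at 144 and 109 (log2 change 0.05, SE 0.28, edgeR adjusted p 0.984). In E12 forestomach 4 of 9 genes were lower than in intestine, where 4.72% of tested genes were: Apoa1, Apoa4, Apob and Mogat2. Apob was at 0.839 and 0.541 CPM there, a log2 change of -6.56 (SE 0.46, edgeR adjusted p 1.0e-08) against intestine. Apoa4 (-3.71, and -2.59 or -4.33 without the first or the second intestine library) and Mogat2 (-1.85) lost their calls in the fit of the compared groups alone, with adjusted p of 0.145 and 0.179. Between the stomach regions at E12, 3 of 9 were lower in forestomach, where 4.28% of tested genes were. These were Apob (-5.16, SE 0.45), Dgat2 (-1.44, SE 0.26) and Apoc2 (-2.43, SE 0.75, edgeR adjusted p 0.0484). The Apoc2 groups overlapped, and its call was lost with a replicate block (adjusted p 0.0708), without the first hindstomach library (-0.45, adjusted p 0.934) and without the first or the second forestomach library (-3.71 and -1.60, adjusted p 0.0502 and 0.39).

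At E14, 8 of 9 genes were lower in hindstomach than in intestine, where 3.35% of tested genes were, and 8 of 9 were lower in forestomach, where 7.29% were. Enterocyte markers took 0.0136% to 0.0140% of counts in E14 hindstomach, 0.00182% to 0.00188% in forestomach and 0.0669% to 0.0788% in intestine. Mesenchyme and muscle markers took 0.00629% to 0.00694%, 0.0109% to 0.0112% and 0.0284% to 0.0356% in the same order. Pancreas markers took 0.0862% to 0.0897%, 0.0130% to 0.0139% and 0.0223% to 0.0236%. Their part in the E14 differences was not tested. Over all tested genes, the 1178 calls between hindstomach and intestine were 688 and 714 without the first or the second hindstomach library and 670 without the first intestine library. The number of the 9 genes called was 5 without the second hindstomach library. Dgat1 was the exception in both, with a mean of 19.8 CPM in hindstomach, 22.4 and 20.7 in forestomach and 26.0 and 22.8 in intestine. The largest difference was that of Apob, at 2.03 and 1.39 CPM in hindstomach and 226 and 200 in intestine (log2 change -6.95, SE 0.45, edgeR adjusted p 4.2e-09). In forestomach Apob had 15 and 0 counts, and its fitted difference from intestine, -9.53, was -15.41 without the first library and -8.44 without the second. Apoa1 (-1.94, SE 0.18), Mttp (-2.26, SE 0.22), Mogat2 (-2.04, SE 0.20) and Dgat2 (-1.92, SE 0.25) were lower in hindstomach with adjusted p of at most 3.8e-05. Apoa4, Apoc2 and Apoc3 were also called lower, from few counts. Apoa4 was at -2.84 (edgeR adjusted p 0.0166) and lost its call without the first or second hindstomach library or the first intestine library, with adjusted p of 0.132, 0.133 and 0.0911. Apoc2 had 3 and 0 counts in hindstomach, a ratio of 27.9 with a 95% counting interval of 9.37 to 137, and Apoc3 had 0 and 1, a ratio of 48.6 with an interval of 8.49 to 1940. Leaving out those same libraries ended the Apoc3 call (adjusted p 0.173, 0.0911 and 0.116) and, for the second hindstomach library, the Apoc2 call (adjusted p 0.0535). In forestomach, the Apoa4 difference of -3.12 lost its call without the second library (-2.89, adjusted p 0.0817). Apoc3 was at 0 counts in both forestomach libraries, at least 7.18-fold lower than in intestine, with adjusted p of 0.0544 and 0.0675 without the first or the second library. Apoc2 had 0 and 2 counts there, a ratio of 38.7 with an interval of 10.5 to 323.

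Forestomach and hindstomach at E14 differed in 3 of 9 genes, all lower in forestomach, where 5.62% of tested genes were lower. Without the first forestomach library 594 of all tested genes were lower in place of 968. Apoa1 was at 7.18 and 9.12 CPM against 32.3 and 32.1 (log2 change -1.99, SE 0.19, edgeR adjusted p 3.7e-07). Mogat2 (-1.14, SE 0.21, edgeR adjusted p 8.7e-04) fell under the size minimum without the second forestomach library, at -0.95. Apob (-2.59, SE 0.62, edgeR adjusted p 0.00806) lost its call without that library (-1.49, adjusted p 0.0967), without the first hindstomach library (-2.28, adjusted p 0.0822) and in the fit of the compared groups alone (adjusted p 0.138), and was at -8.46 without the first forestomach library.

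Hindstomach gained transcripts of these genes between E14 and E16, at lower levels than the intestine. There 7 of 9 rose, where 16.5% of tested genes rose, with a median log2 fold change of 2.31 over the 9 and 0.05 over all tested genes. Without the first E14 library, 1772 of all tested genes rose in place of 2848. Apoa4 rose from 1.13 and 1.03 CPM to 118 and 107 (log2 change 6.69, SE 0.79, edgeR adjusted p 3.8e-06). Apoc2 went from 3 and 0 counts to 222 and 237, a ratio of 185 with a 95% counting interval of 62.8 to 899. Apoc3 went from 0 and 1 counts to 143 and 176, a ratio of 385 with an interval of 68.6 to 15253. Apob (3.82, SE 0.41), Apoa1 (2.31, SE 0.18), Dgat2 (2.28, SE 0.26) and Mttp (2.20, SE 0.22) rose as well. Mogat2 (0.95, SE 0.20, edgeR adjusted p 0.00105) was under the size minimum, and Dgat1 (0.17, SE 0.17, edgeR adjusted p 0.482) overlapped between stages. The shares of several marker lists also rose in hindstomach between those stages, from 0.00629% to 0.00694% up to 0.807% to 0.830% for mesenchyme and muscle and from 0.0136% to 0.0140% up to 0.0267% to 0.0281% for enterocytes. Blood markers went from 0.00153% to 0.00163% up to 0.125% to 0.177%, and pancreas markers from 0.0862% to 0.0897% up to 0.191% to 0.222%. Their part was not tested.

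Whether the change from E14 to E16 differed between intestine and hindstomach was tested as the difference of both log2 fold changes. It was called for 6 of 9 genes, where 13.1% of tested genes were called. For 5 of them the intestine rose more, where 3.92% of tested genes were called in that direction, and for 1 the hindstomach did, where 9.17% were. The excess was 2.87 (SE 0.25, edgeR adjusted p 2.3e-07) for Dgat1, 2.66 (SE 0.30, edgeR adjusted p 4.8e-06) for Mttp, 2.5 (SE 0.27, edgeR adjusted p 4.1e-06) for Mogat2, 1.95 (SE 0.24, edgeR adjusted p 2.0e-05) for Apoa1 and 1.35 (SE 0.35, edgeR adjusted p 0.0107) for Dgat2. Apob went the other way, with a larger rise in hindstomach (difference -1.85, SE 0.51, edgeR adjusted p 0.0181). The Apob call was lost without the second E16 hindstomach library (adjusted p 0.0546), the first E14 intestine library (0.0578), the second E14 hindstomach library (0.111) or the second E16 intestine library (0.0692), with values of -1.80, -1.76, -1.61 and -1.73. The difference for Apoa4 was 2.13 (SE 0.98, edgeR adjusted p 0.157).

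**Figure D3:**
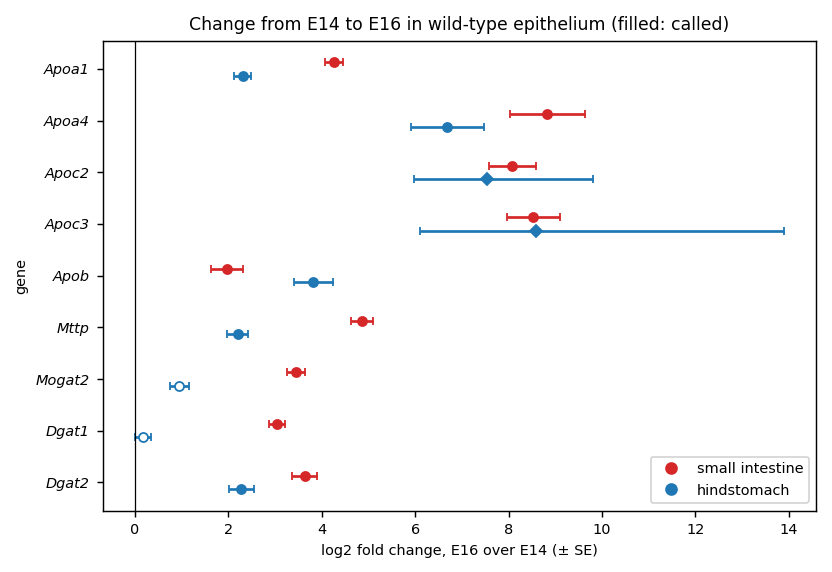
Change of each gene from E14 to E16 in wild-type small intestine and hindstomach, 2 libraries per organ and stage. Circles show the log2 fold change with bars of 1 SE, diamonds the log2 of a count ratio with its 95% counting interval where a group held 1 to 3 counts in total, and filled symbols passed the test. The 2 organs stand farthest apart for Dgat1, Mttp and Mogat2, and Apob is the gene for which the test called a larger change in hindstomach. That Apob call was lost when certain single libraries were left out.

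Earlier in hindstomach, from E12 to E14, 2 of 9 genes fell, where 6.46% of tested genes fell. Apob went from 31.3 and 17.2 CPM to 2.03 and 1.39 (log2 change -3.81, SE 0.41, edgeR adjusted p 1.2e-06). Apoc2 went from 62 and 9 counts to 3 and 0, a ratio of 19.8 with a 95% counting interval of 6.50 to 98.3. Its call was lost without the first E12 library (adjusted p 0.162) or the second E14 library (0.0517). Cdx2 also fell in hindstomach over these stages, from 110 and 152 CPM to 12 and 5.87 (-3.87, SE 0.32, edgeR adjusted p 8.0e-08). Over the same step in hindstomach, pancreas markers went from 4.7e-04% to 5.3e-04% of counts up to 0.0862% to 0.0897%, and liver markers from 8.2e-04% to 0.00160% down to 1.7e-04% to 2.3e-04%. Their part in the changes was not tested.

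In forestomach from E12 to E14, Apoa1 fell from 30.9 and 25.6 to 7.18 and 9.12 CPM (log2 change -1.78, SE 0.18, edgeR adjusted p 1.2e-06), the single call of 9, where 5.13% of tested genes fell. The 6 liver markers took 0.00249% to 0.00252% of counts in E12 forestomach and 1.4e-05% to 7.7e-05% at E14, with Alb at 7.01 to 8.19 CPM and then at 0 in both libraries, and Fgg at 4.80 to 5.98 and then 0 to 0.0343 CPM. Blood markers took 0.0233% to 0.0266% and then 0.00349% to 0.00395%. Their part in the Apoa1 change was not tested. From E14 to E16, 4 of 9 rose and 2 fell, where 20.8% and 16.9% of tested genes did. Dgat2 rose from 10.6 and 12.3 to 83.4 and 67.8 CPM (2.71, SE 0.27, edgeR adjusted p 1.0e-07). Mttp fell from 17.4 and 17.7 to 2.52 and 5.70 CPM (-2.11, SE 0.27, edgeR adjusted p 2.6e-06), and Mogat2 fell by 2.43 on the log2 scale, to 3 and 7 counts. Without the second E16 library these values were -2.82 and -3.16. Apoc2 rose from 0 and 2 counts to 6 and 14, a ratio of 39.6 with a 95% counting interval of 9.62 to 349, Apoc3 rose from 0 and 0 to 4 and 18, at least 14.4-fold (5.28-fold without the second E16 library), and Apoa4 was called at 2.33 (edgeR adjusted p 0.0449). Without the second E16 library none of these last 3 was called (adjusted p 0.0695, 0.0778 and 0.354), and Apoa4 also lost its call without the first or the second E14 library (adjusted p 0.0907 and 0.155) and without the E13 and E15 knockout groups in the fit (0.0594). Blood markers went from 0.00349% to 0.00395% of counts at E14 up to 1.54% to 1.99% at E16 in forestomach, mesenchyme and muscle markers from 0.0109% to 0.0112% up to 2.02% to 2.47%, and immune markers from 2.7e-04% to 3.1e-04% up to 0.0470% to 0.0649%. The 4 epithelial markers went from 0.368% to 0.377% down to 0.0739% to 0.0826%. No test was run of the part these lists had in the changes.

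Libraries labelled Cdx2 knockout were compared with wild-type intestine of the sampled stage. In the libraries labelled E10 knockout, 7 of 9 genes were lower than in E16 wild type, where 27.6% of tested genes were lower. The median log2 fold change was -2.30 over the 9 and -0.10 over all tested genes. All 9 genes stood below wild type in all 3 libraries, without overlap. The largest differences were those of Apob, which encodes the scaffold of the particle, and Mttp, whose product loads it. Mttp was at 37.5, 39.2 and 50.8 CPM against 1643 and 1573 (log2 change -5.29, SE 0.20, edgeR adjusted p 3.0e-13), and Apob at 20.1, 30.4 and 27.8 CPM against 900 and 754 (-5.03, SE 0.33, edgeR adjusted p 1.3e-10). Apoa4 was at 110, 123 and 526 CPM (-3.85, SE 0.55, edgeR adjusted p 4.4e-06), with the third library high and a log2 change of -4.96 without it. The acyltransferase genes were lower too, by -3.25 (SE 0.22) for Dgat2, -2.30 (SE 0.15) for Dgat1 and -2.23 (SE 0.17) for Mogat2, with adjusted p of at most 7.9e-10.

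The apolipoprotein genes with the smallest differences in the libraries labelled E10 knockout were Apoa1, Apoc2 and Apoc3. Apoa1 stood at 1385, 1719 and 1536 CPM against 2385 and 2295, a log2 change of -0.64 (SE 0.15, edgeR adjusted p 0.00128) under the size minimum. Apoc2 was at 154, 264 and 211 CPM against 393 and 356 (-0.88, SE 0.32, edgeR adjusted p 0.0252), also under it. Apoc3 was at 73.5, 98.1 and 161 CPM against 317 and 289 and was called lower (-1.50, SE 0.35, edgeR adjusted p 0.00123), though not with DESeq2 (-1.35, adjusted p 0.139). For scale, E14 wild-type intestine held 124 CPM of Apoa1, 1.36 of Apoc2 and 0.806 of Apoc3 (means, n = 2), and 213 CPM of Apob. The libraries labelled E10 knockout were thus above E14 wild type in those first 3 genes and below it in Apob, a comparison of levels that was not tested. The 7 enterocyte markers together took 0.00804% to 0.00884% of counts in these libraries against 0.318% to 0.338% in E16 wild type. Vil1, Cdh17, Alpi, Anpep and Lct of that list stood lower. Sis, at 0 to 73.9 CPM, spanned the wild-type range of 6.4 to 6.71, and Treh was at up to 0.242 CPM against 0. Mesenchyme and muscle markers took 0.00815% to 0.0125% against 0.138% to 0.150%, pancreas markers 0.00553% to 0.0426% against 0.0536% to 0.0570%, and blood markers 3.3e-04% to 6.6e-04% against 0.0193% to 0.0197%. Their part was not tested.

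In the libraries labelled E13 knockout, 3 of 9 genes were higher than in E16 wild type and none was lower, where 18.7% of tested genes were higher and 20.8% lower. Apob was at 3474 and 3354 CPM against 900 and 754 (log2 change 2.06, SE 0.34, edgeR adjusted p 4.3e-05). Apoc2 was at 1247 and 1311 CPM against 393 and 356 (1.79, SE 0.37, edgeR adjusted p 5.2e-04), and Dgat1 at 538 and 529 against 198 and 200 (1.44, SE 0.17, edgeR adjusted p 7.7e-07). Mttp, at 2740 and 2675 CPM (0.77, SE 0.20, edgeR adjusted p 0.00356), and Dgat2, at 371 and 359 (-0.78, SE 0.24, edgeR adjusted p 0.01), lay outside the wild-type range and under the size minimum. Apoa1, at 2257 and 2386 CPM, overlapped with wild type. Apoa4 (0.51, SE 0.57), Apoc3 (-0.72, SE 0.39) and Mogat2 (0.09, SE 0.18) were not called. The enterocyte markers took 1.83% to 1.89% of counts against 0.318% to 0.338%, most of it in Alpi, an alkaline phosphatase gene, at 19809 to 20744 CPM against 577 to 634. Of the 7 markers, Lct, which encodes lactase, was the one that stood lower, at 5.88 to 6.55 CPM against 397 to 453, and the other 6 stood higher. Vil1 was at 1813 to 1844 against 504 to 526 CPM, Cdh17 at 1150 to 1178 against 878 to 928, Anpep at 470 to 475 against 334 to 396, Sis at 19.8 to 23.0 against 6.4 to 6.71, and Treh at 341 to 344 against 0. Mesenchyme and muscle markers took 0.00148% to 0.00158% against 0.138% to 0.150%, pancreas markers 0.00443% to 0.00450% against 0.0536% to 0.0570%, and blood markers 2.3e-04% to 2.8e-04% against 0.0193% to 0.0197%. The part of these in the 9 genes' differences was not tested. In E18 wild type Apob was at 5426 and 5534 CPM, Apoc2 at 1796 and 1870 and Dgat1 at 1793 and 1757. With the E13 label those 3 genes, Apoa4, Mttp and Mogat2 thus stood between E16 and E18 wild type. Apoc3 and Dgat2 stood below both stages. These comparisons with E18 were not tested.

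In the libraries labelled E15 knockout, 6 of 9 genes were lower than in E18 wild type, where 9.70% of tested genes were lower. The medians were -1.07 over the 9 and 0.00 over all tested genes, and all 9 genes stood below both wild-type libraries. Apoc3 differed most, at 167 and 158 CPM against 826 and 850 (log2 change -2.35, SE 0.40, edgeR adjusted p 2.6e-04). Of the acyltransferase genes, Dgat1 was at 708 and 680 CPM against 1793 and 1757 (-1.34, SE 0.17, edgeR adjusted p 6.4e-06), Mogat2 at 358 and 336 against 865 and 899 (-1.33, SE 0.19, edgeR adjusted p 1.9e-05) and Dgat2 at 489 and 462 against 1017 and 1001 (-1.07, SE 0.24, edgeR adjusted p 0.00203). Mttp was at 2662 and 2783 CPM against 5822 and 5847 (-1.09, SE 0.20, edgeR adjusted p 4.0e-04). Apoa1, at 6030 and 5494 CPM against 11661 and 12146, was at the size minimum (-1.03, SE 0.17, edgeR adjusted p 1.3e-04) and under it without the second knockout library (-0.98). Apoa4 (-0.85, SE 0.58, edgeR adjusted p 0.3), Apob (-0.36, SE 0.33, edgeR adjusted p 0.465) and Apoc2 (-0.32, SE 0.36, edgeR adjusted p 0.576) were not called. In the same libraries the disaccharidase genes Sis and Lct stood at 97.1 to 112 and 23.7 to 26.6 CPM, against 8536 to 8666 and 4579 to 4595 in E18 wild type, while Alpi of the same list was at 4402 to 4582 against 3820 to 3972. The 7 enterocyte markers together took 1.10% to 1.13% against 2.84% to 2.87%, 5 immune markers 7.8e-04% to 8.3e-04% against 0.0210% to 0.0213%, and 6 liver markers 3.4e-04% to 3.5e-04% against 5.3e-05% to 5.7e-05%. Their part was not tested.

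Whether the difference from wild type was larger with the E10 label than with the E15 label was tested directly. It was for 4 of 9 genes, where 21.4% of tested genes were lower in this test. The excess was -4.67 (SE 0.46, edgeR adjusted p 8.9e-08) for Apob, -4.20 (SE 0.28, edgeR adjusted p 7.2e-10) for Mttp, -3.0 (SE 0.78, edgeR adjusted p 0.00344) for Apoa4 (-4.11 without the third E10 knockout library) and -2.18 (SE 0.32, edgeR adjusted p 1.4e-05) for Dgat2. Dgat1 (-0.95, SE 0.23) and Mogat2 (-0.89, SE 0.25) were under the size minimum. For Apoc3 the value was 0.85 (SE 0.53, edgeR adjusted p 0.208). The 2 labels also differ in the Cre driver, tamoxifen, the stage sampled and the cell preparation, which cannot be told apart from the time of deletion.

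**Figure D4:**
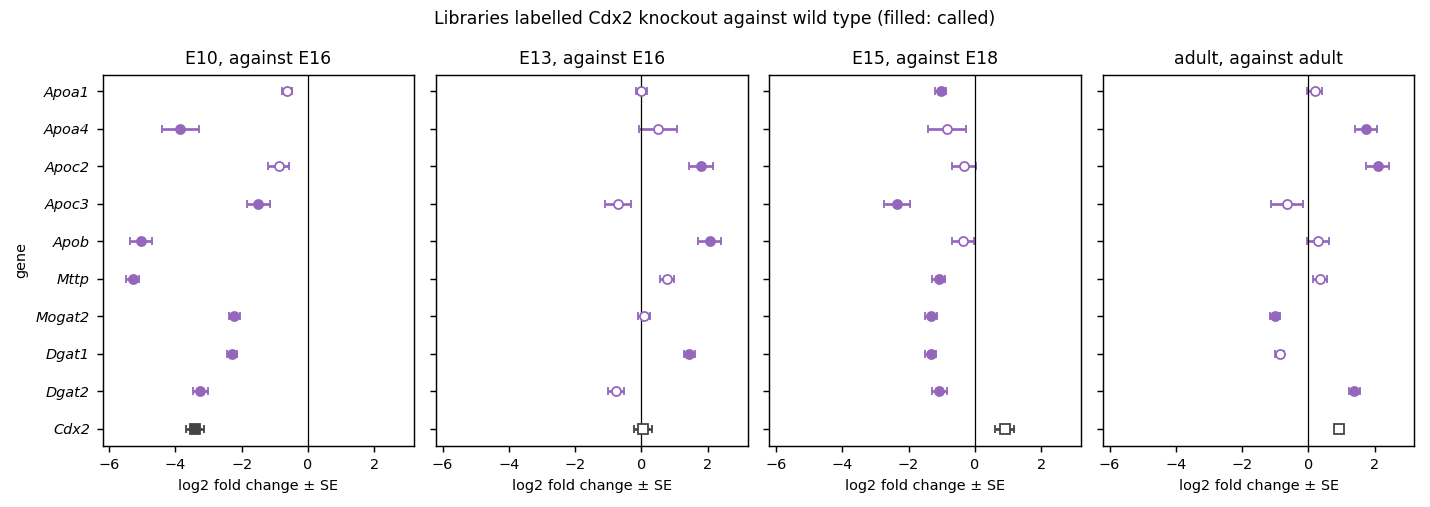
Difference of the 9 genes and Cdx2 between libraries labelled Cdx2 knockout and wild type. Each panel gives the deletion label and the stage of the wild-type group, points show the log2 fold change with bars of 1 SE, filled symbols passed the test, and squares show Cdx2. Mttp and Apob lie farthest below 0 with the E10 label, and Cdx2 itself lies below 0 with that label alone of the 4.

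In adult ileum the label knockout went with higher levels of 3 of the 9 genes and a lower level of 1, where 8.41% and 12% of 12444 tested genes were higher and lower. The 2544 calls behind those shares were 1254 and 1562 without the first or the second library labelled knockout. Apoc2 was at 797 and 1437 CPM against 273 and 209 (log2 change 2.09, SE 0.34, edgeR adjusted p 0.0139). Apoa4 was at 16535 and 20318 CPM against 6257 and 3891 (1.74, SE 0.32, edgeR adjusted p 0.0184), and Dgat2 at 786 and 861 against 321 and 255 (1.39, SE 0.17, edgeR adjusted p 0.00661). Mogat2 was lower, at 399 and 477 CPM against 867 and 752 (-1.01, SE 0.16, edgeR adjusted p 0.0136). Dgat1, at 746 and 754 CPM against 1365 and 1153, was under the size minimum (-0.87, SE 0.15, edgeR adjusted p 0.0151). Dgat1 and Dgat2, which catalyse the same reaction, thus stood on opposite sides of wild type without overlap. Apoa1 (0.19, SE 0.22), Apob (0.29, SE 0.33), Mttp (0.34, SE 0.21) and Apoc3 (-0.65, SE 0.48) were not called. With 2 libraries per group several calls rested on single libraries. Apoa4 was not called without the second control library (1.44, adjusted p 0.0613), the first (1.93, adjusted p 0.0596) or the second knockout library (1.57, adjusted p 0.0706). Apoc2 was not called without the second control library (1.91, adjusted p 0.0582). Mogat2 was not called without the first control (-0.90, adjusted p 0.0506) or the first knockout library (-0.84, adjusted p 0.0772), without the filter on low counts (-0.98) or with all 31 libraries in one fit (-0.885). Apoc3 was called lower without the second control library (-1.20, adjusted p 0.0293) and was at 0.24 (adjusted p 0.426) without the first, and the controls themselves stood at 600 and 221 CPM. Enterocyte markers took 1.18% to 1.26% of counts in the libraries labelled knockout and 2.75% to 3.13% in controls. The 6 liver markers took 0.00120% to 0.00223% against 2.9e-05% to 4.3e-05%, with Hpx at 9.59 to 17.1 against 0.0878 to 0.317 CPM, Fga at 7.79 to 8.08 against 0, and Alb at 0 against 0.0791 to 0.0878. Immune markers took 4.1e-04% to 5.1e-04% against 0.00275% to 0.00605%, and pancreas markers 0.00197% to 0.00436% against 3.7e-04% to 3.8e-04%. The part of these lists was not tested.

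Pairs of related genes were also followed as count ratios within a library, where library size cancels. These ratios are not corrected for gene length, so they are compared between libraries only, with no test. Apoa4 counts per Apoa1 count were 0.0622 and 0.0641 in E14 intestine, 1.54 and 1.47 at E16 and 1.28 and 1.26 at E18. The libraries labelled E10 knockout held 0.0791, 0.0713 and 0.343, the third being the high one. Those labelled E13 held 2.19 and 2.11, above E16 wild type, and those labelled E15 held 1.42 and 1.46, above E18 wild type. Adult controls stood at 0.423 and 0.268 and adults labelled knockout at 0.864 and 1.18. Apoc2 counts per Apoc3 count were 1.24 and 1.23 in E16 and 2.17 and 2.20 in E18 wild type. They were 6.97 and 7.07 with the E13 label and 9.0 and 8.87 with the E15 label, above the wild-type embryonic intestine libraries at E14, E16 and E18, while the E10 label gave 2.10, 2.69 and 1.31. In the adult they were 0.456 and 0.943 in controls and 3.08 and 4.62 with the knockout label. Dgat2 counts per Dgat1 count were 2.02 and 2.22 at E14, 3.21 and 3.18 at E16 and 0.567 and 0.570 at E18. They were 1.50, 1.70 and 1.80 with the E10 label, 0.690 and 0.678 with the E13 label and 0.691 and 0.680 with the E15 label. Adult controls held 0.235 and 0.221, and adults labelled knockout 1.05 and 1.14.

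**Figure D5:**
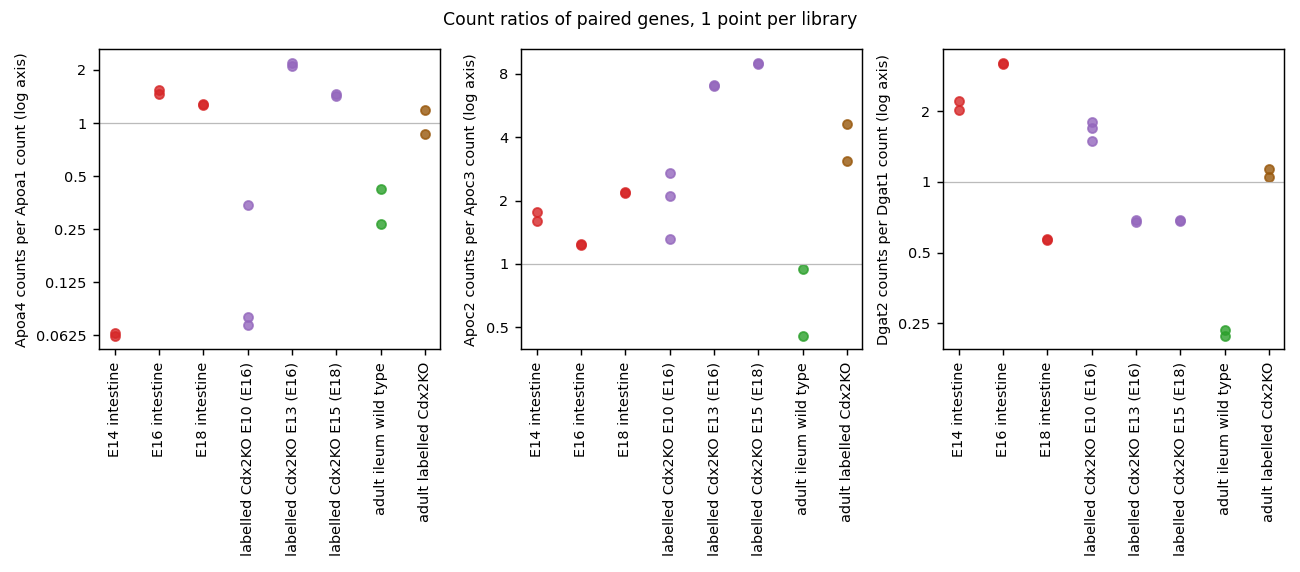
Count ratios of 3 gene pairs, 1 point per library, on log axes. Brackets give the sampling stage of libraries labelled Cdx2 knockout. The ratio of Apoc2 to Apoc3 is highest with the E13 and E15 labels, at 6.97 to 9.0, and the ratio of Dgat2 to Dgat1 in wild-type intestine is lower at E18 than at E16.

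Other genes of the pathway were read from 5 lists, of which 61 genes were tested in the embryo and 57 in the adult. In intestine from E14 to E16, 37 of 61 rose and 1 fell, where 13.7% and 11.9% of tested genes did, with a median log2 fold change of 2.04 against -0.08 over all tested genes. By list, 13 of 18 genes of apolipoprotein B particle assembly and export rose, 8 of 14 of glyceride and cholesteryl ester synthesis, 7 of 10 of lipid uptake and sterol transport, 7 of 13 regulators and 2 of 6 other apolipoproteins. Tm6sf2, whose product helps lipidate apolipoprotein B particles, rose from 0.344 ± 0.117 to 198 ± 6.91 CPM (SD, n = 2 each). Creb3l3, a transcription factor of liver and intestine that acts on apolipoprotein genes, rose from 0.480 ± 0.112 to 301 ± 0.753 CPM. From E16 to E18, 30 of 61 rose and 10 fell, where 20.1% and 22.1% of tested genes did. Slc27a2, an acyl-CoA synthetase for fatty acids, rose by 6.89 (SE 0.46, edgeR adjusted p 4.1e-10), and Abcg8, 1 of the 2 parts of the transporter that returns sterols to the lumen, by 6.44 (SE 0.38, edgeR adjusted p 9.1e-09). Apoe and Apoc1, which encode other apolipoproteins, went the other way over this step. Apoe fell from 139 ± 13.4 to 5.62 ± 0.486 CPM, and its neighbour Apoc1 from 36.6 ± 0.138 to 0.0765 ± 0.108 CPM. Over the same step mesenchyme and muscle markers went from 0.138% to 0.150% of counts down to 3.1e-04% to 4.2e-04%, and their part was not tested.

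In E16 hindstomach, 34 of the 61 pathway genes were lower than in intestine and 1 was higher, where 8.10% and 17.5% of tested genes were. Fabp2, the intestinal fatty acid binding protein, was lower by -5.75 (SE 0.30, edgeR adjusted p 9.1e-11), and Abcg8 was at 0 CPM in both hindstomach libraries against 3.99 ± 1.10 in intestine. Apoe was the one that was higher, at 478 ± 80.0 against 139 ± 13.4 CPM (SD, n = 2 each). Mesenchyme and muscle markers took 0.807% to 0.830% of counts in E16 hindstomach against 0.138% to 0.150% in intestine. Immune markers took 0.0607% to 0.0750% against 0.0120% to 0.0123%. Their part in the Apoe difference was not tested. In the libraries labelled E10 knockout, 44 of 61 were lower and 2 higher, where 27.6% and 23.9% of tested genes were, with a median of -2.13 against -0.10 over all tested genes. Lower ones included Npc1l1, the cholesterol uptake channel of the brush border (-6.08, SE 0.60, edgeR adjusted p 3.3e-08), and A1cf, a partner of the enzyme that edits Apob RNA (-5.74, SE 0.55, edgeR adjusted p 3.4e-08). Agpat2, an enzyme of phosphatidic acid synthesis, was 1 of the 2 that were higher (1.26, SE 0.19, edgeR adjusted p 9.3e-06). With the E13 label, 21 of 61 were higher and 8 lower, where 18.7% and 20.8% of tested genes were. Slc27a2 (5.39, SE 0.44, edgeR adjusted p 5.9e-09) and Abcg8 (4.66, SE 0.35, edgeR adjusted p 1.2e-07) were higher, and Cd36, a fatty acid receptor, was lower (-3.10, SE 0.61, edgeR adjusted p 2.8e-04). Mean Slc27a2 was 140 CPM with that label and 398 in E18 wild type, and mean Abcg8 99.8 and 344. Both thus stood between E16 and E18 wild type, while Cd36 stood below both stages. The comparison with E18 was not tested.

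With the E15 label, 6 of 61 pathway genes were higher and 20 lower, where 7.79% and 9.70% of tested genes were. This count of 26 was 17 when the second wild-type library or either knockout library was left out. Cd36 was lower, at 9.56 ± 0.0154 against 276 ± 3.28 CPM, as was Abca1, which loads cholesterol onto apolipoprotein A-I (-3.47, SE 0.67, edgeR adjusted p 5.7e-04). Scarb1, the receptor for high-density lipoprotein, was higher at 143 ± 7.89 against 18.5 ± 0.874 CPM (SD, n = 2 each). In the adult, 10 of 57 were higher and 9 lower, where 8.41% and 12% of tested genes were. The total of 19 was 9 without the first and 12 without the second knockout library. Scarb1 was higher there too, at 140 ± 18.7 against 1.70 ± 0.169 CPM. Ppargc1a, a coactivator of oxidative metabolism, was lower (-4.95, SE 0.17, edgeR adjusted p 7.2e-04). Fabp1, the liver-type fatty acid binding protein, was higher (3.01, SE 0.59, edgeR adjusted p 0.0215), and Cd36 was lower (-4.66, SE 0.67, edgeR adjusted p 0.0102). Both lost their call without the first (adjusted p 0.095 and 0.0726) or the second knockout library (0.0662 and 0.0678).

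Among 13 regulators of these genes, 12 were lower in the libraries labelled E10 knockout than in E16 wild type, where 27.6% of tested genes were lower. Hnf4a, which encodes a nuclear receptor of gut and liver, was at 29.6 ± 12 against 346 ± 26.7 CPM (SD, n = 3 and 2; log2 change -3.61, SE 0.33, edgeR adjusted p 1.0e-08). Its relative Hnf4g was lower by -3.09 (SE 0.29, edgeR adjusted p 1.4e-08) and Creb3l3 by -5.22 (SE 0.47, edgeR adjusted p 1.8e-08). Gata6 was the one not called (-0.42, SE 0.17, edgeR adjusted p 0.0432). With the E13 label 1 of 13 was higher, Ppara (2.46, SE 0.43, edgeR adjusted p 8.9e-05), and 1 lower, Srebf1 (-1.48, SE 0.17, edgeR adjusted p 7.4e-07), where 18.7% and 20.8% of tested genes were. With the E15 label 3 were lower, where 9.70% of tested genes were: Hnf4g (-1.18, SE 0.31), Creb3l3 (-1.39, SE 0.45) and Ppargc1a (-2.13, SE 0.68). Hnf4a was not among them (0.26, SE 0.34, edgeR adjusted p 0.636). In the adult, Hnf4g was lower (-3.0, SE 0.37, edgeR adjusted p 0.00682) and Ppara, a receptor for fatty acids, was higher (1.87, SE 0.42, edgeR adjusted p 0.0283).

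The order of levels over all 15 groups differed among the 9 genes. Apoc2, Apoc3, Mttp, Mogat2, Dgat1 and Dgat2 were highest in E18 wild-type intestine, though Mogat2 overlapped there with adult controls. Apoa1, Apoa4 and Apob were highest in adult ileum labelled knockout, and for Apob those libraries overlapped with adult controls. Adult and embryonic libraries were made with different kits, which cannot be told apart from age. At the low end, the Dgat1 means were 19.8 to 29.7 CPM in all 6 groups of stomach at E12, E14 and E16 and in intestine at E12 and E14, with most neighbours in the order overlapping. The lowest group was a forestomach group for Apoa1, Apoc3, Apob, Mttp, Mogat2 and Dgat2. Apoc2 was lowest in E12 intestine, with 0 counts, and Apoa4 in E12 hindstomach. Apoc2 there overlapped with E14 forestomach, at 0 and 2 counts, and Apoa4 with E12 forestomach. Apoc3 held 0 counts in E12 and E14 forestomach and overlapped with E14 hindstomach, at 0 and 1.

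Over the 13 embryonic groups, the genes whose mean log2 levels followed each member most closely were found among 17233 genes by Pearson's r. These values share libraries and describe the groups, and no test was made. Apoc2 and Apoc3 followed each other (r = 0.983). The closest gene was Hsd17b13 for Apoa4 (0.983), Fam98c for Apoc3 (0.984), Cdhr5 for Apob (0.984), Aldh9a1 for Mttp (0.986), Anxa13 for Mogat2 (0.983), Apol9a for Dgat1 (0.991) and Ugt1a1 for Dgat2 (0.980). Cidec, a lipid droplet protein gene of the pathway lists, was among the closest genes of Apoa4 (0.977), and Fabp2 among those of Apoa1 (0.970). Between members, r ran from 0.79 for Apoc3 with Apob to 0.98 for Apoc2 with Apoc3, over 13 group means.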

How the data were processed

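The 9 genes and the gene lists were chosen with earlier results of these data known. The values are read counts per gene symbol, whole numbers with no normalization, as the authors deposited them. The submitters' processing notes name STAR 2.5.3a, HTSeq and build mm9, without saying which step each served. The strand setting and annotation are not given in the sources used here, so overlapping genes may share reads. Per the labels' protocols, E12 to E16 cells were sorted for Epcam after trypsin and E18 and adult villi were released with EDTA. Embryonic libraries were made with SMARTer-Seq v4 and adult ones with TruSeq. Blank cells in 4 adult columns were closed up, and the 9 genes lie above them. There were 2 columns of per-sample values that matched no sample and were not used. Samples of other assays in the series, 38 of ATAC-seq and 5 of ChIP-seq, did not enter the results.

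Counts were tested with edgeR 4.0.16 (R 4.3.3), with TMM scaling, filterByExpr at a minimum count of 10 and the quasi-likelihood test. The 27 embryonic libraries in 13 groups shared 1 fit and the 4 adult libraries another. A call needed a Benjamini-Hochberg adjusted p below 0.05 over all tested genes (17239 and 12444) and a log2 fold change of at least 1 in size. SE is the log2 fold change over the square root of F. CPM use TMM sizes over 31 libraries. Against a group with 0 counts a fold is a bound from a floor of 3 counts per library, and against a group with 1 to 3 counts in total it is a count ratio with its 95% interval. Floors and intervals cover counting error only, since the counts are reads, not molecules. Apart from the 9 genes and Cdx2, the rule for naming took the 2 called pathway genes per direction with the largest change and an average log2 CPM of at least 2 in each of 7 comparisons, and neighbours of the 9 genes. The regulators beyond these were named after their values were seen. The tests were also run on simulated counts, with no outcome given here. Alternatives were DESeq2 1.42.0, RLE scaling, no filter on low counts, no fold minimum, a fit of the compared groups only, groups left out of the fit, all 31 libraries in 1 fit, a replicate block and each library left out. Results on some genes are not reported here.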

Additional observations from a re-analysis of the deposited data

Results flagged for a closer look

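The change from E14 to E16 differed between small intestine and hindstomach, by a test of the difference itself, for 6 genes. The log2 difference, intestine minus hindstomach, was 2.87 for Dgat1, 2.66 for Mttp, 2.5 for Mogat2, 1.95 for Apoa1, 1.35 for Dgat2 and -1.85 for Apob. The Apob value was the one with the opposite sign. The Apob call was lost when certain single libraries were left out, at values from -1.61 to -1.80.

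The difference between libraries labelled Cdx2 knockout and wild type was larger with the E10 label than with the E15 label for 4 genes, again by a test of the difference itself. On the log2 scale, E10 minus E15, it was -4.67 for Apob, -4.20 for Mttp, -3.0 for Apoa4 and -2.18 for Dgat2.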

How the results depend on the processing

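Alternatives changed calls of the 9 genes mostly at E12 and E14. In a fit of the compared groups only, 1 gene was called between hindstomach and intestine at E12 (main value 4), 2 between forestomach and intestine (4), 2 in intestine from E12 to E14 (7), 1 in hindstomach from E12 to E14 (2) and 2 in forestomach from E12 to E14 (1). DESeq2 also called 2 in that last comparison. Without a fold minimum 5 genes were called between stomach regions at E12, 4 in hindstomach and 2 in forestomach from E12 to E14, and 5 with the E13 label. Over all tested genes, the fit of the compared groups only called 122 between hindstomach and intestine at E12 (main value 1599), 188 between forestomach and intestine at E12 (1740), 214 in intestine from E12 to E14 (2795), 2480 between hindstomach and intestine at E14 (1178), 2233 between stomach regions at E14 (1459) and 3813 for the difference of changes (2255). RLE scaling shifted the median of all genes by 0.11 in intestine, 0.13 in hindstomach and 0.26 in forestomach from E14 to E16, by 0.19 and 0.15 for E16 forestomach against intestine and hindstomach, and by 0.20 for the E10 and E15 labels compared. It ended no call and turned no direction among 144 results on the 9 genes.

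With each library left out in turn, the number called ranged from 2 to 5 between stomach regions at E12, from 5 to 8 between hindstomach and intestine and 1 to 3 between stomach regions at E14, from 1 to 3 in hindstomach and 1 to 2 in forestomach from E12 to E14, from 3 to 6 in forestomach from E14 to E16 and from 2 to 3 in the adult. Over all genes it ranged from 1138 to 3899 and from 1102 to 3980 for hindstomach and forestomach against intestine at E12, from 1762 to 4895 in intestine from E12 to E14, each highest without the second E12 intestine library. It ranged from 670 to 853 for hindstomach against intestine at E14 (1178), from 2467 to 3098 in hindstomach from E14 to E16 (3796) and from 1254 to 2055 in the adult (2544). Where this left 1 library in a group, it was assumed to vary like the others. Directions reversed for 3 of the 9 genes and Cdx2: with the E13 label, Apoa1 ranged from -0.036 to 0.043 and Cdx2 from -0.018 to 0.132, and in the adult Apoc3 ranged from -1.197 to 0.244 and Apob from -0.136 to 0.653. The cause was not tested.

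Replicate numbers did not pair the embryonic libraries: deviations of same-numbered libraries correlated between -0.038 and 0.097. With a replicate block, 2 genes were called between stomach regions at E12 (3 without), 7 for the difference of changes between intestine and hindstomach (6) and 5 for that between the E10 and E15 labels (4). In the adult, where the correlation was -0.152, a block by number and a crossed pairing each called 4 genes.

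Groups that held 0 to 3 counts, for Apoc2 in E12 intestine, Apoc2 and Apoc3 in stomach and Apob in forestomach, allow bounds or wide ratios only.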
